A study of Mus musculus with 6 samples.

Results

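The genes described here encode the translation initiation factors of the mouse, with the elongation factors beside them: every gene of the deposited liver table whose symbol begins with *Eif1* to *Eif6*, apart from the kinases *Eif2ak1* to *Eif2ak4* and symbols with -ps, the mark of a pseudogene, or with *Eef1* or *Eef2*. The pattern took 78 of the 54446 genes, 4 kinases and 9 pseudogenes were left out, and 65 members remained. Of these, 51 are named as initiation factors or their close relatives, 13 are elongation factors or enzymes that modify them, and *Eif2c5* carries an older symbol of the Argonaute type. Livers of 3 WT and 3 *Fmo5*-/- mice were compared by RNA-seq, with 1 library per mouse. All mice were males of 32 weeks on a chow diet, the WT being C57BL/6J and the *Fmo5*-/- line made on that background, and the disruption of the gene for flavin-containing monooxygenase 5, carried in every tissue, is the one difference of genotype that the labels name. Each library held 44886286 to 52338675 counts on genes.

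Protein synthesis begins when eIF2, bound to GTP, brings the initiator methionyl-tRNA to the small ribosomal subunit, where eIF1, eIF1A, eIF3 and eIF5 are already assembling. The eIF4 factors bind the cap of the mRNA and unwind its leader, the complex scans to the start codon, and eIF5B joins the large subunit; eEF1 and eEF2 then drive each step of elongation. The liver, which secretes most plasma proteins, adjusts these steps chiefly by phosphorylation of eIF2 and of the eIF4E binding proteins, which mRNA levels do not report.

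No member passed the test. With edgeR's quasi-likelihood test, a gene was called where the adjusted p was under 0.05 and the mean normalized count was 500 or more, and 0 of the 50 members of that level were called, against 1.61% of all 7819 such genes. At an unadjusted p under 0.05 there were 15 members, all with the lower mean in *Fmo5*-/- mice, against 17.6% of all genes lower at that p and 25.2% in either direction. DESeq2 called 3 members, *Eif1ax*, *Eif3l* and *Eif4g2*, against 9.54% of genes, and edgeR without a filter on low counts called 4, *Eif1ax*, *Eif2s3x*, *Eif4g1* and *Eif4g2*, against 12.5%. In each of these fits the share of members past the adjusted threshold was no higher than that of all genes. The intervals were narrow: the 95% confidence interval of 47 of the 50 members lay within 0.5 of 0 on the log2 scale.

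Which way the members lay depended on how libraries were scaled. With TMM factors, 43 of 50 members had the lower mean in *Fmo5*-/- mice, against 64.0% of all genes, and the median log2 fold change was -0.107, against -0.062. In 16 members the 3 *Fmo5*-/- values were all below the 3 WT values, against 21.9% of genes, and in 0 they were all above, against 9.39%. Without scaling factors, on total counts alone, an alternative chosen after seeing the data, 25 of 50 members were lower and 25 higher, against 39.5% of all genes lower, and the median was 0.003 while that of all genes was 0.047. On that scale 6 members lay wholly below WT, against 8.40% of genes, and 4 wholly above, against 19.7%. That setting moved the median of all genes by 0.109. The 10 lower members with the smallest p moved with all genes, to log2 fold changes of -0.24 to -0.09. Those wholly below WT on both scales were *Eif1ax*, *Eif2s1*, *Eif3e*, *Eif3m*, *Eif4e* and *Eif4g2*, and those wholly above with total counts, each overlapping with TMM, were *Eif2b2*, *Eif2d*, *Eif3d* and *Eif4ebp1*. The distance of the members' median from that of all genes was -0.045 with TMM. A change of scaling moves all genes nearly alike and so cannot test this distance; with the counts of 1 strand it was -0.015. By mouse, this distance was -0.044, 0.02 and 0.025 in WT and -0.055, -0.056 and -0.041 in *Fmo5*-/-, and 1 WT mouse lay inside the *Fmo5*-/- range. All fold changes below are on the TMM scale and can be read against the -0.062 of the average gene.

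Values that moved with genotype stand beside all of these results. *Fmo5*, the targeted gene, had normalized counts of 39808, 37405 and 30239.7 in WT and 1071, 1102 and 1194 in *Fmo5*-/- livers, as the labels have it. It lies on chromosome 3, as do the members *Eif2a*, *Eif4e* and *Eif5a2*. Whether this position has a part in their values was not tested. Reads mapping to several places made up 11.8% to 13.1% of reads in WT and 10.4% to 11.5% in *Fmo5*-/- libraries. Unmapped reads (9.7% to 10.2% against 9.1% to 9.2%), reads on more than 1 gene (3.52% to 3.62% against 3.72% to 3.98%) and TMM factors (0.96 to 0.97 against 1.00 to 1.08) also separated the genotypes. The summed level of 5 hepatocyte markers overlapped between genotypes, at 99514 to 129143 CPM (counts of a library scaled to the same total) in WT and 113991 to 131839 in *Fmo5*-/-. The 6 markers of Kupffer cells and macrophages summed to 129.4 to 151.6 in WT and 202.4 to 372.9 in *Fmo5*-/- livers, and 5 of them lay wholly higher. The T and NK cell markers summed to 1.45 to 3.3 and 4.46 to 20.3. The sums of the B cell and of the neutrophil markers were also wholly higher, at under 6 CPM. Of single markers, 3 of 5 for T and NK cells, 1 of 3 for B cells and 2 of 4 for neutrophils lay wholly higher. The lists for sinusoidal endothelium, stellate cells, cholangiocytes and red blood cells overlapped between genotypes. Those for skeletal muscle, exocrine pancreas and adipocytes summed to at most 1.68 CPM, and Cpa1, of the pancreas, was the one marker at 0 in all libraries. Their part in the results was not tested, and in bulk liver fewer cells of a type and less RNA per cell cannot be told apart. Each library is 1 mouse, and p-values measure the spread between these mice. The title of each sample carries a number, in a separate range for each genotype, and the labels do not say what it stands for.

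**Figure D1:**
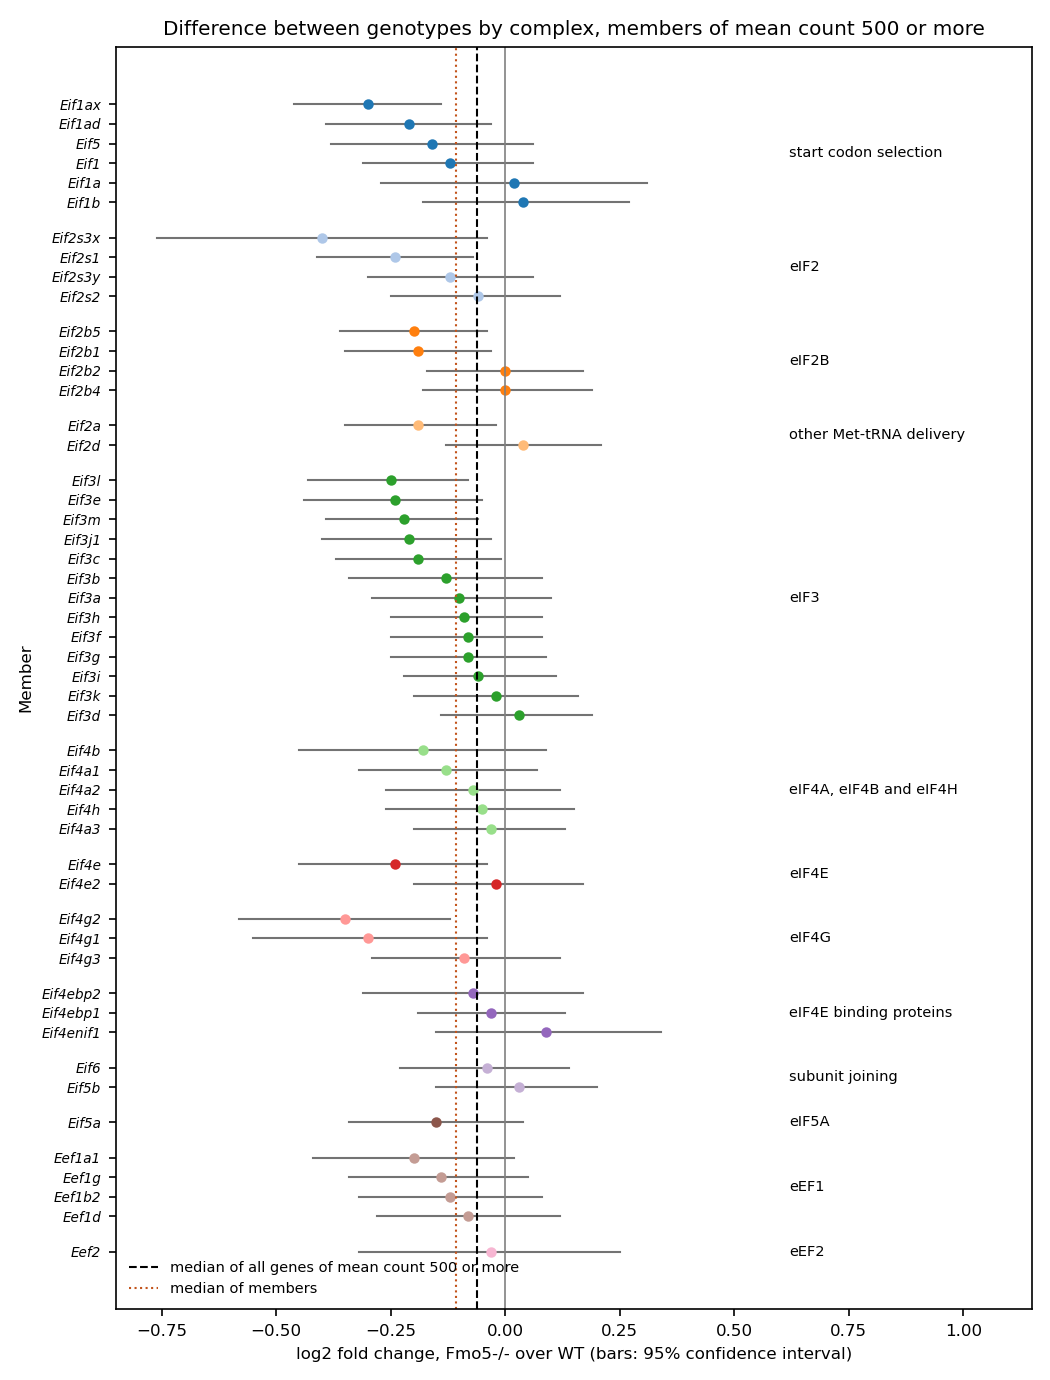
Log2 fold change of each of the 50 members with a mean count of 500 or more, *Fmo5*-/- over WT, with its 95% confidence interval (n = 3 mice per genotype), grouped by complex. Most points lie to the left of 0, as does the median of all genes at -0.062 (dashed), and the median of the members lies at -0.107 (dotted).

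The factors that hold the scanning complex open until the start codon is found gave the member with the smallest p. *Eif1ax* encodes eIF1A from the X chromosome (chrX:159372178-159389928 on mm10) and shares no exon base with another annotated gene. Its normalized counts were 2033, 2049 and 2188 in WT and 1700.1, 1669 and 1729 in *Fmo5*-/- mice. The groups did not overlap and the *Fmo5*-/- mice were close together, 18.7% lower on the mean (log2 fold change -0.30, SE 0.072, 95% confidence interval -0.46 to -0.14, edgeR adjusted p = 0.071, DESeq2 adjusted p = 0.0208). Its autosomal relative *Eif1a* had 3053, 2542 and 3100 in WT and 3483, 2728 and 2581 in *Fmo5*-/-, with overlapping groups and a log2 fold change of 0.02 (adjusted p = 0.957 by edgeR). The ratio of *Eif1a* to *Eif1ax*, per length of transcript, was 1.9, 1.57 and 1.79 in WT and 2.59, 2.07 and 1.89 in *Fmo5*-/-; 1 *Fmo5*-/- mouse lay inside the WT range.

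*Eif1ad*, a relative of eIF1A by sequence, stood at 1109, 1130.4 and 1061 against 917.6, 928.9 and 1008. The groups did not overlap (log2 fold change -0.21, SE 0.078, adjusted p = 0.167), and 15.3% of its exon bases are shared with *Banf1* on the opposite strand; reads on bases of more than 1 gene were set aside as ambiguous, so its count rests on the other bases. *Eif1* itself, which rejects wrong start codons, had a log2 fold change of -0.12 and its relative *Eif1b* one of 0.04, both with overlapping groups. *Eif5*, the activator of GTP hydrolysis by eIF2, was counted at 13997, 13091 and 12389 in WT and 12593, 10612 and 12104 in *Fmo5*-/-, again with overlap (log2 fold change -0.16, adjusted p = 0.375; -0.09 without *Fmo5*-/- replicate 2).

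eIF2 has 3 subunits, and the alpha subunit *Eif2s1*, the one that stress kinases phosphorylate, was separated between genotypes. Counts of *Eif2s1* were 1727, 1865 and 1852 in WT and 1622, 1499 and 1487 in *Fmo5*-/-, 15.3% lower on the mean and without overlap, but not past the threshold (log2 fold change -0.24, SE 0.077, adjusted p = 0.121). The beta subunit *Eif2s2* overlapped, at 3008, 3263 and 3548 against 3145, 3207 and 3044 (log2 fold change -0.06).

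The gamma subunit comes from a pair of genes, on the X and the Y chromosome, and male liver expresses both. The first 75 coding bases of each, from the GENCODE vM21 transcript models, are shown because reads of that length have to tell the genes apart; capitals mark the 14 bases at which they differ.
Eif2s3x: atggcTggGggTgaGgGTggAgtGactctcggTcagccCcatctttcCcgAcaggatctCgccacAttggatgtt
Eif2s3y: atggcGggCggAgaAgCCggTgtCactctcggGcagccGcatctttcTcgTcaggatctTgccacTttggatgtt
Over the whole coding sequence 194 of 1419 bases differ, and 0 windows of 75 bases are shared, so a read of that length within the coding part belongs to 1 of them. For *Eif2s3x*, however, 34.2% of transcript windows also occur in *Gm2223* and a pseudogene, and reads that map to several places were not counted. The Y-linked copy was the higher: *Eif2s3x* was at 0.213, 0.22 and 0.182 of the level of *Eif2s3y* per length in WT and at 0.205, 0.141 and 0.161 in *Fmo5*-/- mice.

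*Eif2s3x* had the lowest log2 fold change of the 50 members, -0.40, with the widest spread beside it. Its counts were 652.4, 722 and 530.6 in WT and 570.1, 391.0 and 479.1 in *Fmo5*-/-. The groups overlapped through 1 mouse of each genotype (SE 0.16, 95% confidence interval -0.76 to -0.04, adjusted p = 0.187). *Eif2s3y* was at 3349.7, 3581 and 3182 against 3041, 3033 and 3243, also with overlap (log2 fold change -0.12, adjusted p = 0.422; -0.07 without WT replicate 2). The ratio of the pair, tested within mice, differed by -0.29 on the log2 scale with a pooled SD of 0.22 (exact permutation p = 0.2, two-sided), and the difference was -0.17 without *Fmo5*-/- replicate 2 and -0.44 without replicate 1.

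eIF2B returns eIF2 to its GTP-bound form and is the enzyme that phosphorylated eIF2 blocks. Its catalytic subunit *Eif2b5* was tightly grouped, at 1905, 1929 and 1819.9 in WT and 1643, 1631 and 1659 in *Fmo5*-/- mice. All 3 *Fmo5*-/- values were below all WT values (log2 fold change -0.20, SE 0.071, adjusted p = 0.153), and so were those of the regulatory subunit *Eif2b1* (-0.19, adjusted p = 0.172). The other subunits of that level did not follow: *Eif2b2* was at 999.7, 996.5 and 997.9 against 995.8, 954.6 and 1037, and *Eif2b4* at 1641, 1778 and 1870 against 1778, 1847 and 1671, each overlapping. *Eif2b3* was tested but had a mean under 500 (log2 fold change -0.10). Among the factors that can deliver the initiator tRNA without eIF2, *Eif2a* lay lower without overlap (-0.19, adjusted p = 0.184), and *Eif2d*, at 1579, 1614 and 1605 against 1662, 1732 and 1553, overlapped (0.04, adjusted p = 0.782).

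eIF3, the largest initiation factor, is the scaffold that links the small subunit to the mRNA-bound factors. Of its 14 members 13 had a mean of 500 or more. In 12 of the 13 the log2 fold change was below 0, against 64.0% of all genes, with a median of -0.10 and a range of -0.25 to 0.03. With total counts it was below 0 in 6, against 39.5% of all genes. On the TMM scale 6 lay wholly below WT, against 21.9% of all genes: *Eif3c*, *Eif3e*, *Eif3h*, *Eif3j1*, *Eif3l* and *Eif3m*. With total counts the median was 0.01, and 2 lay wholly below and 1 wholly above, against 8.40% and 19.7% of all genes. None was called by edgeR, where 5, all lower, had an unadjusted p under 0.05 (17.6% of all genes), and DESeq2 called *Eif3l* alone (9.54%).

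Within eIF3, the subunits *Eif3l*, *Eif3e* and *Eif3m* had the lowest log2 fold changes. *Eif3l* was at 4256, 4611 and 4620.4 in WT and 3778, 3853 and 3674 in *Fmo5*-/- (16.2% lower; log2 fold change -0.25, SE 0.076, edgeR adjusted p = 0.103, DESeq2 adjusted p = 0.0409). *Eif3e* was at 3529, 4052 and 3593 against 3288, 2929 and 3225 (-0.24, SE 0.087, adjusted p = 0.153). *Eif3m* was at 2524, 2498 and 2363 against 2104, 2049 and 2172 (-0.22, SE 0.073, adjusted p = 0.125). All 3 separated the genotypes. *Eif3d*, a subunit that can itself bind the cap, was at 2189, 2204 and 2216 against 2168, 2356 and 2211, with WT values inside the *Fmo5*-/- range; 43.3% of its exon bases are shared with *Gm17638* on the opposite strand. Its direction turned when 1 strand was counted, but the strand columns held nearly equal totals in each library, so the libraries do not mark strand, and reads on the shared bases, set aside in the unstranded count, enter that count from either gene. The core subunits *Eif3a* and *Eif3b* overlapped between genotypes (-0.10 and -0.13).

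*Eif3j1* and *Eif3j2*, which encode the loosely bound j subunit, have 0 differences over 786 aligned coding bases. Of the windows of the *Eif3j2* transcripts 87.4% occur in other genes, so its 42 to 55 reads per library come from the few unshared bases and its level is uncertain. *Eif3j1* was at 902.3, 980.9 and 889.5 in WT and 792.8, 763.7 and 832.5 in *Fmo5*-/- mice, without overlap (log2 fold change -0.21, SE 0.082, adjusted p = 0.172). Its value is uncertain too, since 20.2% of its exon bases overlap Spg11 or Gm47314 and 47.3% of its windows occur in other genes, *Eif3j2* among them.

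**Figure D2:**
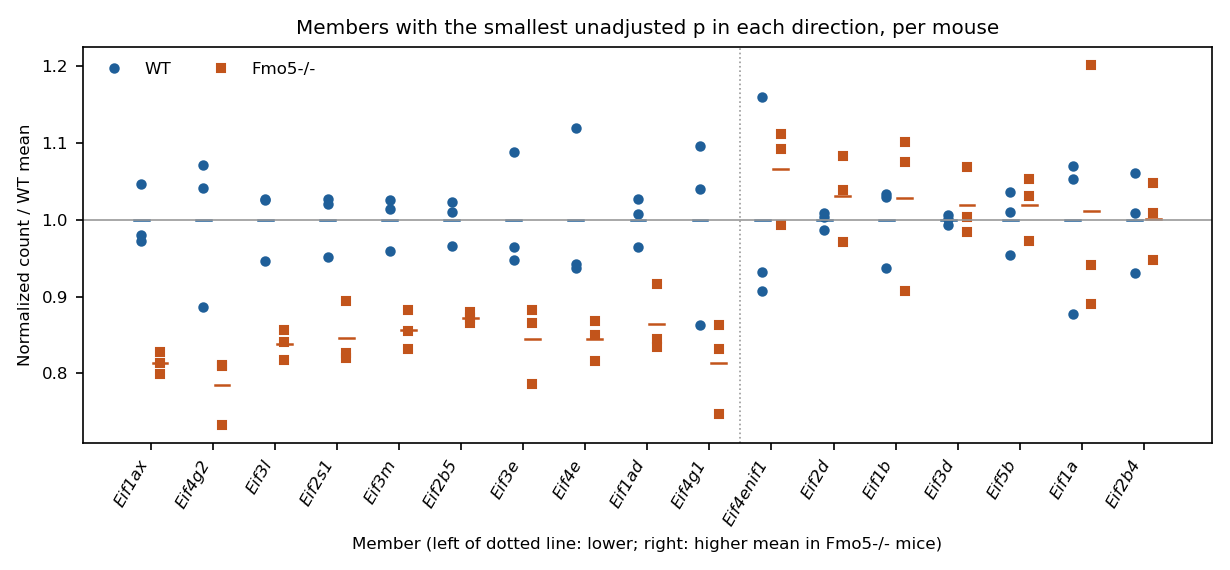
Normalized count of each mouse divided by the WT mean (vertical axis) for the 10 members with the smallest unadjusted p among those lower in *Fmo5*-/- mice and the 7 members of mean 500 or more with a higher mean. Circles are WT and squares *Fmo5*-/- mice (n = 3 each), and bars are means. On this TMM scale the groups in 9 of the 10 on the left do not overlap, *Eif4g1* being the exception, while all 7 on the right overlap. The 10 were picked by smallest p, so their separation cannot be set against a share of all genes. Over all 50 members 16 lay wholly lower and 0 wholly higher, against 21.9% and 9.39% of all genes. With total counts *Eif3l*, *Eif2b5* and *Eif1ad* overlap too, and *Eif2d* and *Eif3d* lie wholly higher.

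The eIF4G scaffolds join the cap-binding protein, the helicase and eIF3, and they gave the largest differences among abundant members. *Eif4g2* encodes the relative that lacks the eIF4E binding site and serves cap-independent initiation. It was counted at 23014, 23653 and 19589 in WT and at 17921, 16189 and 17875 in *Fmo5*-/- mice. The groups were separate, with 1 WT mouse nearer to the *Fmo5*-/- mice, and the mean was 21.5% lower (log2 fold change -0.35, SE 0.10, 95% confidence interval -0.58 to -0.12, edgeR adjusted p = 0.0975, DESeq2 adjusted p = 0.0229). *Eif4g1*, the main scaffold, was at 27942, 29441 and 23164 against 23183, 20070.2 and 22318. The same WT mouse lay just inside the *Fmo5*-/- range (-0.30, SE 0.11, edgeR adjusted p = 0.171). *Eif4g3* overlapped throughout, at 3811, 3701 and 4156 against 3988, 3669 and 3338 (-0.09, adjusted p = 0.631; -0.03 without WT replicate 3 or *Fmo5*-/- replicate 3 and -0.15 without *Fmo5*-/- replicate 1).

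The ratio of *Eif4g1* to *Eif4g2* was nearly constant over the mice. Per length it was 1.69, 1.73 and 1.65 in WT and 1.8, 1.73 and 1.74 in *Fmo5*-/-, so both genes varied together from mouse to mouse. Levels per length are given in TPM, computed from the counts and exon lengths of each library and scaled to the same total. Summed over the 3 scaffolds, the level was 291.9 ± 37.5 TPM (SD, n = 3) in WT and 256.9 ± 10.8 in *Fmo5*-/- mice, a difference within the WT spread.

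*Eif4e*, the cap-binding protein whose supply limits cap-dependent initiation, was at 1393, 1664 and 1401 in WT and 1291, 1212 and 1264 in *Fmo5*-/- (log2 fold change -0.24, SE 0.091, adjusted p = 0.167; -0.15 without WT replicate 2). The groups did not overlap. *Eif4e2*, the relative that represses translation of the mRNAs it binds, did overlap, at 2392, 2758 and 2494 against 2500.3, 2427 and 2621 (-0.02, adjusted p = 0.921). The ratio of *Eif4e* to *Eif4e2*, which no scaling of libraries can alter, was 0.726, 0.753 and 0.701 in WT and 0.644, 0.623 and 0.601 in *Fmo5*-/- mice. It was lower in all 3 *Fmo5*-/- mice, by 0.22 on the log2 scale with a pooled SD of 0.051, and the exact permutation p was 0.1, the smallest that 3 against 3 mice allow (adjusted over 12 pairs, 0.3).

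*Eif4e3*, a further cap-binding relative, was low, with counts of 197, 262.2 and 194.3 in WT and 257.1, 426.8 and 237.6 in *Fmo5*-/- mice. A single *Fmo5*-/- mouse stood far above the rest, and the interval of the log2 fold change of 0.50 ran from -0.04 to 1.04; without that mouse, replicate 2, it was 0.18. *Eif4e1b*, the egg form, had 0 counts in all 6 libraries, and 3 counts, the most that a count of 0 allows, come to 0.0573 to 0.0668 CPM.

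The binding proteins that hold eIF4E back when mTORC1 is inactive differed little. *Eif4ebp1*, at 2222, 2299 and 2316 against 2246, 2167 and 2267, had a log2 fold change of -0.03 with a 95% confidence interval of -0.19 to 0.13. *Eif4ebp2*, the more abundant by counts at 12266, 12854 and 10907 against 12685, 10187 and 11449, had one of -0.07 (-0.31 to 0.17). Both overlapped between genotypes. *Eif4enif1*, the shuttling protein that carries eIF4E into the nucleus, was at 1038, 1292 and 1010.2 against 1238, 1216 and 1106, the highest log2 fold change among the 50 members at 0.09 (adjusted p = 0.666), which was 0.21 without WT replicate 2 and 0.03 without WT replicate 3. *Eif4ebp3* was low and shares 67.3% of its exon bases with a readthrough gene on the same strand, so its value of -0.30 (SE 0.27) is uncertain, and it turned positive with the counts of 1 strand.

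The helicase group unwinds the leader of the mRNA and overlapped between genotypes in all 5 members of mean 500 or more. *Eif4a1* was at 8748, 9267 and 9936 in WT and 8595, 8124 and 8898 in *Fmo5*-/- (log2 fold change -0.13; -0.07 without WT replicate 3), and its close relative *Eif4a2* at 12713, 12383 and 11983 against 12197, 11052 and 12101 (-0.07). The ratio of the pair per length was 0.848 to 1.02 in WT and 0.868 to 0.906 in *Fmo5*-/- mice, so both forms were counted at about equal levels. Of transcript windows, 25.4% of those of *Eif4a1* and 8.29% of those of *Eif4a2* also occur in other genes. Reads that map to several places were not counted, which limits this comparison of levels. *Eif4a3*, the exon junction helicase, and the cofactors *Eif4h* and *Eif4b* had log2 fold changes of -0.03, -0.05 and -0.18.

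At the last steps of initiation the genotypes were close. *Eif5b*, the GTPase of subunit joining, was at 4553, 4943 and 4822 in WT and 5029, 4919 and 4641 in *Fmo5*-/- mice (log2 fold change 0.03, 95% confidence interval -0.15 to 0.20). *Eif6*, which keeps the large subunit apart until it is needed, was at 2533, 2428 and 2302 against 2505, 2356 and 2188 (-0.04, -0.23 to 0.14). Both overlapped between genotypes.

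*Eif5a*, which carries the modified lysine hypusine and eases stalled ribosomes, was at 15086, 16801 and 15258 in WT and 13910, 13898 and 14645 in *Fmo5*-/-. The groups did not overlap (log2 fold change -0.15, SE 0.086, adjusted p = 0.345). Its rare copy *Eif5a2* had 10, 12 and 9 raw counts in WT and 20, 21 and 13 in *Fmo5*-/- libraries, and its log2 fold change of 0.61 had an interval of -0.12 to 1.35. *Eif5a* exceeded *Eif5a2* by 3013, 2653 and 3507 times per length in WT and by 1579, 1525 and 2427 times in *Fmo5*-/- mice, which did not overlap (exact permutation p = 0.1, adjusted 0.3), on a denominator of at most 21 reads.

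**Figure D3:**
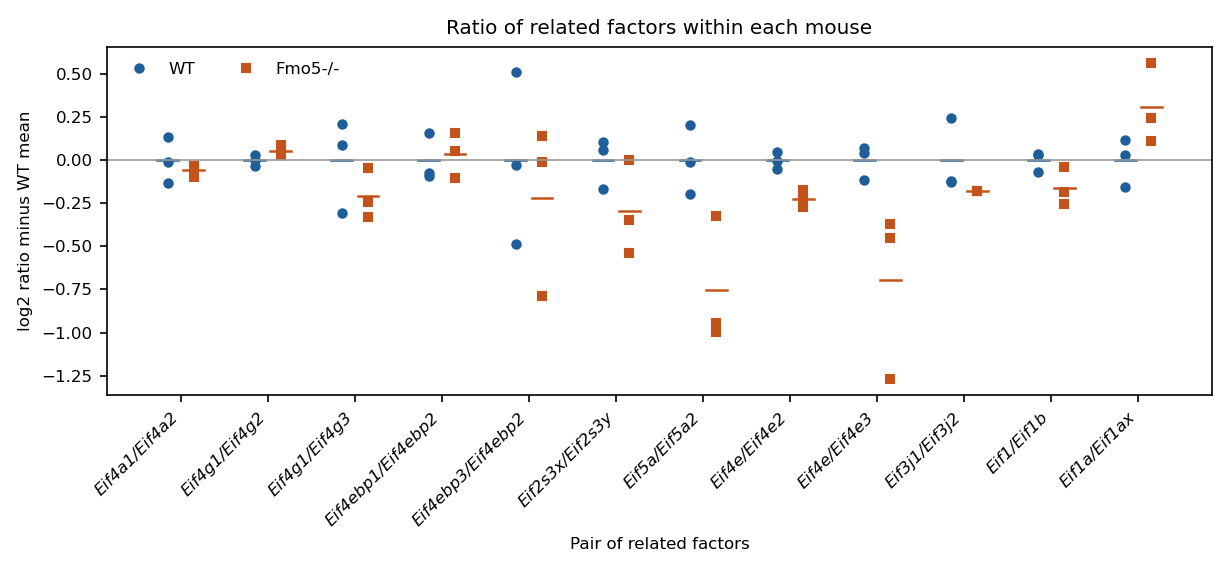
Log2 ratio of related factors within each mouse, less the WT mean of that ratio, for the 12 pairs tested. Circles are WT and squares *Fmo5*-/- mice (n = 3 each), and bars are means. The groups are separate for *Eif4e*/*Eif4e2*, *Eif4e*/*Eif4e3*, *Eif5a*/*Eif5a2* and *Eif3j1*/*Eif3j2*. The sign of each difference depends on which gene is on top, and the pairs with *Eif4e* share that gene.

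In 4 of the 12 pairs the ratio did not overlap between genotypes, and none passed the adjusted threshold, which 3 mice against 3 cannot reach. Besides *Eif4e* with *Eif4e2* and *Eif5a* with *Eif5a2*, these were *Eif4e* with *Eif4e3*, at 2.96, 2.66 and 3.02 in WT and 2.1, 1.19 and 2.23 in *Fmo5*-/- (a log2 difference of -0.70, and -0.41 without *Fmo5*-/- replicate 2), and *Eif3j1* with *Eif3j2*, both uncertain. By permutation of mice, a single pair separates in this way, in either direction, with a probability of 0.1. The 12 pairs are not independent, since some share a gene, among them those with *Eif4e*. The ratio of *Eif1* to *Eif1b*, at 4.15 to 4.45 in WT and 3.64 to 4.22 in *Fmo5*-/- mice, overlapped by 1 mouse of each genotype. *Eef1a1* and *Eef1a2* were listed as a pair but not tested, since *Eef1a2* had 1, 3 and 2 counts in WT and 0 in each *Fmo5*-/- library, both at or under the 3 counts that a count of 0 allows.

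*Eef1a1* and *Eef2*, elongation factors, were the most abundant members, and no elongation factor was called. *Eef1a1*, which brings each aminoacyl-tRNA to the ribosome, was at 107217, 107884 and 109503 in WT and 103881, 87619 and 90704 in *Fmo5*-/- mice. All *Fmo5*-/- values were lower, with 1 of them near WT (log2 fold change -0.20, SE 0.098, adjusted p = 0.27); 26.6% of its transcript windows occur in 14 other genes, mostly unnamed copies, which limits what was counted. *Eef2*, the translocase, was at 68956, 78676 and 66153 against 80767, 60388 and 67707, and here the *Fmo5*-/- mice spanned the WT range (-0.03, SE 0.13, adjusted p = 0.904). The exchange factor subunits *Eef1b2*, *Eef1d* and *Eef1g* overlapped between genotypes, with log2 fold changes of -0.12, -0.08 and -0.14. *Eef1e1*, a scaffold of the synthetase complex, had a mean under 500.

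*Eef2k* encodes the kinase that inactivates eEF2 and had higher values in *Fmo5*-/- mice. Its counts were 355.8, 447.5 and 440.7 in WT and 501.2, 452.5 and 514.4 in *Fmo5*-/-. The groups were separate by a few counts (log2 fold change 0.24, SE 0.12, adjusted p = 0.292; 0.15 without WT replicate 1), and its mean was under the limit of 500. The eEF2 lysine methyltransferase *Eef2kmt* was also wholly higher, at 251, 263.3 and 276.1 against 328.8, 303.8 and 283.7 (0.21, adjusted p = 0.345), but 23% of its exon bases are shared with genes on the opposite strand. Both genes lie under the mean of 500 from which shares of all genes were computed, so no share stands beside their separation. The enzymes that methylate eEF1A were low: *Eef1akmt1*, *Eef1akmt2* and *Eef1akmt4* had overlapping groups, and *Eef1akmt3*, with 2 to 6 counts, was not tested. In all, 4 members were not tested (*Eef1a2*, *Eef1akmt3*, *Eif2c5* and *Eif4e1b*) and 11 were tested below a mean of 500.

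Compared per length, the factors differ far more from each other than between genotypes. Levels are given in TPM with SD over 3 mice. *Eef1a1* stood at 2039 ± 48.9 in WT and 1928 ± 153.4 in *Fmo5*-/- mice, *Eef2* at 1009 ± 122.2 and 1069 ± 141.0, and *Eif5a*, the highest of the initiation factors by name, at 310.9 ± 27.1 and 304.3 ± 7.66. Next came *Eif4g1* at 173.1 ± 25.5 in WT, *Eif3h* at 154.5 ± 1.38, *Eif4b* at 143.3 ± 16.8 and *Eif1* at 136.2 ± 10.2, and neighbours among these 4 lay within their spread, while *Eef1a1*, *Eef2*, *Eif5a* and *Eif4g1* were further apart than theirs. Subunits of a single complex were not at equal levels per length. In eIF3, leaving out *Eif3j2*, they ran from 7.46 ± 0.611 for *Eif3j1*, itself uncertain, to the value of *Eif3h*. In eIF2B they ran from 3.65 ± 0.21 for *Eif2b3* to 34.1 ± 1.95 for *Eif2b5*. The length is that of all annotated exon bases, 5830 for *Eif3j1* and 1612 for *Eif3h*, and 6520 for *Eif2b3* and 2595 for *Eif2b5*. These gaps therefore depend in part on the length used. In normalized counts the WT means were 924.2 for *Eif3j1* and 5304 for *Eif3h*, and 506.4 for *Eif2b3* and 1885 for *Eif2b5*. *Eif4e*, at 11.6 ± 1.53 TPM, was well below its binding partners *Eif4ebp2*, at 97.7 ± 10.7, and *Eif4g1*.

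Summed over each complex, these levels overlapped between genotypes. The mean was lower in *Fmo5*-/- mice for eIF4G, given above, and for eIF2 (85.9 TPM in WT and 84.2 in *Fmo5*-/-). It was also lower for eIF5A (311.0 and 304.5) and eEF1 (2254 and 2143), and equal or higher for the other complexes. The 14 eIF3 members came to 769.6, 809.0 and 768.5 TPM in WT and 785.9, 795.4 and 765.9 in *Fmo5*-/- mice, and the 4 eIF2 members to 82.7, 92.5 and 82.6 against 84.5, 84.7 and 83.2. All 51 initiation factors summed to 2666 ± 151.5 in WT and 2645 ± 29.4 in *Fmo5*-/- (SD, n = 3), and the groups overlapped. This scale has no correction for composition, and, as with total counts above, it places *Fmo5*-/- mice higher relative to WT than TMM does.

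**Figure D4:**
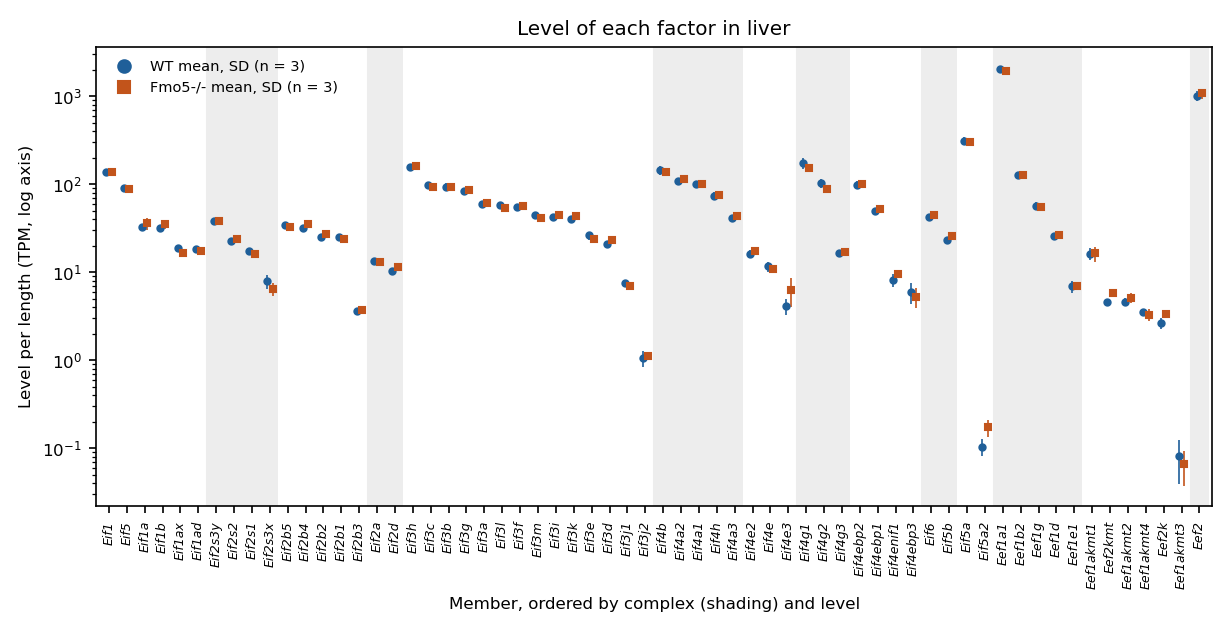
Level of each member in TPM on a log axis, ordered by complex (shaded bands) and by level in WT. Circles are WT and squares *Fmo5*-/- means with SD (n = 3 mice each); the 3 members under 0.05 in WT are left out, and in nearly all the others the genotypes lie close beside a range that runs from 0.0806 for *Eef1akmt3* to 2039 for *Eef1a1*.

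Promoter sequence was available from RefSeq (GRCm38.p6) for 49 of the 65 members, as windows of 250 bases before to 50 after the start. The letters CCGGAAG, the core that ETS factors bind, were found on either strand in 16 of them, or 32.7%, against 9.93% of all promoters and 18.5% of those of tested genes. The windows around these letters are shown for 3 of the 4 members that hold them among the 10 lower members with the smallest p, *Eif1ad* being the other, with the letters, or their reverse complement, in capitals; each run reads 5′ to 3′ along the gene.
Eif1ax (chrX:159371940-159371999, plus strand): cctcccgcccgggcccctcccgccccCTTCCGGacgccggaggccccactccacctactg
Eif3l (chr15:79075162-79075221, plus strand): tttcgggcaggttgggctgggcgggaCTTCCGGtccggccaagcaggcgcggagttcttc
Eif3m (chr2:105017049-105017108, minus strand): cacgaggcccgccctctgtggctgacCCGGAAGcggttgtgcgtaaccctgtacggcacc
The letters begin at -212, -35 and -55 from the start in these genes. The median log2 fold change was -0.08 over the 15 with them and -0.12 over 26 without, among members of mean 500 or more with a window.

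The pair of gamma subunit genes also share letters at the start codon. The letters AAGATGG, the core of YY1 sites, occur in 16.3% of member windows against 7.28% of all promoters, and in the following windows, from 30 bases before the start, they include the ATG with which the coding sequences shown above begin.
Eif2s3x (chrX:94212622-94212681, minus strand): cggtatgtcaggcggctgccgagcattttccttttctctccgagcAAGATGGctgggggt
Eif2s3y (chrY:1010565-1010624, plus strand): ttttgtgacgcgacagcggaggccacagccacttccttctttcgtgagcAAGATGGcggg
Over their coding sequences the genes are 86.3% identical. Among the other letters searched on both strands, GGGCGG was in 75.5% of member windows (64.4% of tested genes), CACGTG in 26.5% (11.3%), GCATGCGC in 10.2% (5.41%), TATAAA in 10.2% (9.62%) and TGACGTCA in 2.04% (3.36%). A match is a description of the letters and not a site.

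Other genes of translation and its control were taken as 5 lists of 64 symbols, 63 of them found, 50 with a mean of 500 or more. Of these edgeR called 1, against 1.61% of all genes, DESeq2 called 6, against 9.54%, and 16 had an unadjusted p under 0.05, against 25.2%. The gene called by edgeR, *Gfm1*, is the elongation factor G of mitochondria; its counts were 4844, 4826 and 4384 in WT and 3402, 3172 and 3235 in *Fmo5*-/- mice. It was 30.2% lower, without overlap (log2 fold change -0.52, SE 0.079, adjusted p = 0.0241), but no gene of the lists was called when WT replicate 1 or 2 or *Fmo5*-/- replicate 1 or 2 was left out. In that order, those fits called 33, 52, 14 and 55 of all genes, against 126 with all mice. All 8 mitochondrial translation factors of mean 500 or more had a log2 fold change below 0, against 64.0% of all genes. With total counts 6 of them did, against 39.5%. Of the 8, edgeR called 1 (1.61% of all genes), DESeq2 called 1 (9.54%) and 4 had an unadjusted p under 0.05 (25.2%). In 6 the *Fmo5*-/- values lay wholly below WT, against 21.9% of all genes, and in 2 with total counts, against 8.40%. The median log2 fold change of the list was -0.18, and -0.07 with total counts.

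The list of mRNA binding and small subunit partners held 11 genes of mean 500 or more, all below 0, against 64.0% of all genes, with a median of -0.22. With total counts 8 were below 0, against 39.5% of all genes. Of the 11, edgeR called 0 (1.61% of all genes), 6 had an unadjusted p under 0.05 (25.2%) and DESeq2 called 4 (9.54%). The lowest were *Mcts1*, a partner of *Denr* in reinitiation, at 1208, 1193 and 1263 against 826.3, 917 and 1002 (-0.42, adjusted p = 0.0564), and *Paip1*, which binds poly(A) binding protein and eIF3 (-0.38, adjusted p = 0.0552). Both separated the genotypes. In the list of eIF2alpha kinases and phosphatases 0 of 10 were called by edgeR and 1 by DESeq2, and 3 had an unadjusted p under 0.05, near those same shares of all genes, with a median of 0.09; the interferon-induced kinase *Eif2ak2* was at 848.4 ± 26.2 in WT and 1008 ± 1.33 in *Fmo5*-/- mice (SD, n = 3; log2 fold change 0.25, adjusted p = 0.102), and *Dnajc3*, a co-chaperone of the endoplasmic reticulum described as an inhibitor of such kinases and the gene of this list that DESeq2 called, was at 14229, 16762 and 12485 against 9730.1, 10269 and 9813, without overlap (log2 fold change -0.54, edgeR adjusted p = 0.0552, DESeq2 adjusted p = 0.000531). The mTORC1 and MNK list had 0 of 16 called by either tool and 3 at an unadjusted p under 0.05, with a median of -0.02, and the termination and modification list 0 of 5 by either tool and 0 at that p, with a median of -0.18. In these last lists no share exceeded that of all genes (1.61% for edgeR, 9.54% for DESeq2 and 25.2% at the unadjusted p). With total counts the median was -0.11 for the mRNA binding and small subunit partners and 0.19 for the eIF2alpha kinases and phosphatases. It was 0.09 for the mTORC1 and MNK list and -0.07 for the termination and modification list, against 0.047 for all genes.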

How the data were processed

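The authors clipped adapters from single reads of 75 bases, mapped them to mm10 with STAR and deposited STAR's counts per gene for each of the 6 libraries, unstranded and for each strand. They also deposited a table from DESeq2: its signal columns hold counts divided by a size factor per library, its log2 columns fold changes and standard errors, its score column the Wald statistic and its p-value columns raw and adjusted p. Only its symbols, and its signal to check which counts it came from, were used, not the authors' comparison. The annotation release is not given in the sources used here; lengths, positions and overlaps came from GENCODE vM21 (same build), where 62 of 65 members had the same versioned identifier.

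Members were taken by symbol and joined by identifier. Genes were filtered with edgeR's filterByExpr (minimum count 10), normalized with TMM factors and tested in R 4.3.3 by the quasi-likelihood method of edgeR 4.0.16 (robust, two-sided), with p adjusted by Benjamini-Hochberg over the 16734 genes kept. The limits for a call, 0.05 on the adjusted p and 500 on the mean normalized count, are those of the study. DESeq2 1.42.0 was an alternative. Normalized counts are counts scaled by TMM to the mean library. Standard errors come from the quasi-likelihood F. TPM values were computed from counts and exon length. Ratios of pairs were compared by exact permutation over mice, two-sided, adjusted over 12 pairs. The fit was tested on simulated data, where it recovered 31.3% of changes of 0.5 on the log2 scale and 92.5% of changes of 1, among 16734 genes. Genes were named by rule: called members, otherwise the 10 of smallest p in each direction, the paired genes, and *Eif2s1*, *Eif2b5*, *Eif4e*, *Eif5*, *Eif5b*, *Eif6*, *Eef2* and *Eef2k*. Other genes named were chosen after their values were seen. The members and the lists were chosen with earlier results of these data known. Limits from a count of 0 (3 counts) cover counting error only.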

Additional observations from a re-analysis of the deposited data

How the results depend on the processing

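Each library came from a different mouse and the labels name no pairs, so no paired analysis was run. With 3 mice per genotype the simulated fit recovered 31.3% of changes of 0.5 on the log2 scale, and all 50 members of mean 500 or more differed by less than 0.5, so a missing call does not show equal levels. Reads on bases of more than 1 gene were set aside, so *Eif1ad*, *Eif1b*, *Eif3d*, *Eif3j1*, *Eif4a2*, *Eif4e3*, *Eif4ebp3*, *Eif5b*, *Eef2kmt* and *Eef1akmt4*, which share over 10% of their exon bases, were counted on the rest.

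The count of 0 called members held under RLE factors, TMM without the 20 most abundant genes, the limit of 500 applied before the fit, total counts, counts of 1 strand and each left-out mouse, and became 3 with DESeq2 and 4 with no filter on low counts. The count of lower members, 43, became 25 with total counts, an alternative added after seeing the data, and was 33 to 45 under the others. The members' median of -0.107 was 0.003 with total counts and -0.043 with the limit of 500 before the fit, where the scaling itself used other genes; its distance from all genes, -0.045, was -0.015 with the counts of 1 strand. The cause of that last shift was not tested. Called genes of the lists of other translation genes, 1 in the report, were 6 with DESeq2, 6 with no filter, 2 with total counts, 2 with 1 strand and 0 to 3 with a mouse left out.

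Of 49 single members and ratios, 34 kept their sign under the settings run for them, which leaves out total counts. The 12 ratios were run only with 1 strand and with each mouse left out, and some low genes have no value with the limit of 500 or with 1 strand. Sign turned as follows. With DESeq2 *Eif1a* was at -0.00036 and *Eif2b4* at -0.01, and *Eif2b4* was at -0.0046 with RLE factors and -0.01 with no filter. With the limit of 500 before the fit *Eif4ebp1* was at 0.03, *Eif4e2* at 0.05, *Eif6* at 0.02 and *Eef2* at 0.03. With 1 strand *Eif3d* was at -0.03, *Eif4ebp3* at 0.27, *Eif3j2* at 0.28 and the ratio *Eif4ebp3*/*Eif4ebp2* at 0.32. With a mouse left out the ranges were -0.01 to 0.12 for *Eif1b*, -0.01 to 0.05 for *Eif3d*, -0.00074 to 0.06 for *Eif5b*, -0.13 to 0.10 for *Eif1a*, -0.04 to 0.05 for *Eif2b4*, -0.15 to 0.01 for *Eif4ebp2*, -0.06 to 0.04 for *Eif4e2*, -0.18 to 0.06 for *Eif3j2*, -0.09 to 0.0033 for *Eif6* and -0.16 to 0.06 for *Eef2*, and for the ratios -0.12 to 0.01 (*Eif4a1*/*Eif4a2*), -0.02 to 0.12 (*Eif4ebp1*/*Eif4ebp2*) and -0.46 to 0.07 (*Eif4ebp3*/*Eif4ebp2*). Without a change of sign, a left-out mouse gave 0.01 to 0.08 for *Eif2d*, -0.10 to -0.02 for *Eif4a2*, -0.05 to -0.01 for *Eif4ebp1*, -0.50 to -0.08 for *Eif4ebp3*, 0.18 to 0.41 for *Eif1a*/*Eif1ax*, -0.24 to -0.05 for *Eif3j1*/*Eif3j2* and -0.36 to -0.10 for *Eif4g1*/*Eif4g3*. The cause was not tested.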
